A study of Mus musculus with 3 samples.

Results

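Heat shock chaperones are proteins that bind other proteins while these are unfolded and help them to fold, to be moved or to be degraded. The genes described here are 10 of the 32285 genes counted in the files: Hspa1a and Hspa1b, Dnajb1, Hsph1, Hsp90aa1, Hspa8, Hsp90ab1, Dnaja1, Hspd1 and Hspe1. They were picked by symbol, with earlier results of these data in view, because their levels differed between libraries and cell types. Their levels by cell class and library are therefore a description, and none of them carries a test. The cells were immune cells sorted on the surface protein CD45 from hearts of C57BL/6J mice aged 8 to 9 weeks. There were 3 libraries, labelled Sham, MI and MI-E, with 1 library each. By name, Sham is sham surgery and MI is myocardial infarction. MI and MI-E are together called the infarct libraries below, a short name that the labels do not state for MI-E. MI-E is not expanded in the labels, the surgery text (ligation of the left anterior descending artery) is attached to all 3 libraries alike, and the labels give no time after surgery and no count of hearts per library.

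As background, cytosolic folding runs on the HSP70 and HSP90 machines. HSP70 proteins hold short hydrophobic stretches of a client in a cycle driven by ATP, J-domain proteins such as those made from Dnajb1 and Dnaja1 bring them clients and speed the cycle, and Hsph1 releases the spent nucleotide. HSP90 takes over clients that are nearly folded, among them kinases and steroid receptors, and the chaperonin of Hspd1 with its lid Hspe1 folds proteins inside mitochondria. Under heat, oxidants or other stress that unfolds proteins, heat shock factor 1 binds repeated nGAAn units in front of a subset of these genes and switches them on within minutes. Hspa1a, Hspa1b, Dnajb1, Hsph1 and Hsp90aa1 are taken here as the stress-inducible genes of the set. Hspa8, Hsp90ab1, Dnaja1, Hspd1 and Hspe1 are made in unstressed cells and are called constitutive, which does not mean that stress cannot raise them. The grouping came from general knowledge of heat induction and was not read from these data.

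Counts are unique molecular identifiers (UMIs), each standing for 1 captured RNA molecule, and levels are UMIs per 1000000 UMIs of a cell class in a library (CPM). The libraries held 11357, 9095 and 12707 barcodes and 41140109, 98814001 and 104562768 UMIs in Sham, MI and MI-E. After filters 10098, 8184 and 11989 cells remained, with a median of 2822, 9463.5 and 7409 UMIs per cell. Each pair of libraries shared between 26 and 45 cell barcodes. Cells were clustered without the 10 chaperones and the related genes read below, and clusters were put into classes by markers of each cell type. Monocyte-macrophage cells numbered 3610 in Sham against 5779 in MI and 5573 in MI-E. Clusters left without a class held 13.9%, 16.9% and 14.4% of the cells. With 1 library per condition there is no test between conditions. Intervals in brackets are exact 95% Poisson intervals (for ratios, the exact interval of 2 counts) and cover counting error only, not the spread between mice. Fewer cells of a kind and less RNA per cell cannot be told apart in a class total.

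In monocyte-macrophage cells the inducible HSP70 genes stood far higher in Sham than in the other libraries. Hspa1a, 1 of the 2 neighbouring genes for inducible HSP70, was at 3633 CPM in Sham (3607 to 3659), 92.9 in MI and 125 in MI-E. Hspa1b, the other copy, was at 2358 CPM in Sham against 40.0 in MI and 51.0 in MI-E. Summed, the pair made up 0.599% of all UMIs of these cells in Sham, or 5990 CPM (5957 to 6024), against 133 CPM in MI (130 to 136) and 176 CPM in MI-E (173 to 179). MI was thus 45.1-fold lower than Sham (44.1 to 46.1) and MI-E 34.1-fold lower (33.4 to 34.7). The MI-E level was 1.32 times that of MI (1.29 to 1.36). Both infarct libraries are set against the same Sham library, so the similarity of their values for any gene is no independent support.

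The class is made of different clusters in the libraries, and the gap was smaller inside clusters. In Sham, clusters 4 and 6 held 39.6% and 51.5% of monocyte-macrophage cells. Cluster 4 had the leading genes of resident heart macrophages (Lyve1, Vsig4, Fcna, Timd4), and cluster 6 was led by Lilra5, Mmp13 and Mgl2. In MI most cells lay in cluster 10 (34.1%, led by Gpnmb and Cd5l) and cluster 9 (21.2%, led by Ppbp and Arg1), and in MI-E in cluster 11 (32.4%, classical monocyte-like, led by Dmkn, Ifitm6 and Ly6c2), cluster 9 (28.8%) and cluster 10 (26.0%). Averaged with equal weight over the 3 clusters that held at least 50 cells of both libraries (4, 6 and 11), the log2 ratio of MI to Sham for Hspa1a plus Hspa1b was -2.74 in place of -5.48. Over 4 such clusters (4, 6, 11 and 19) the log2 ratio of MI-E to Sham was -1.34 in place of -5.08.

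**Figure D1:**
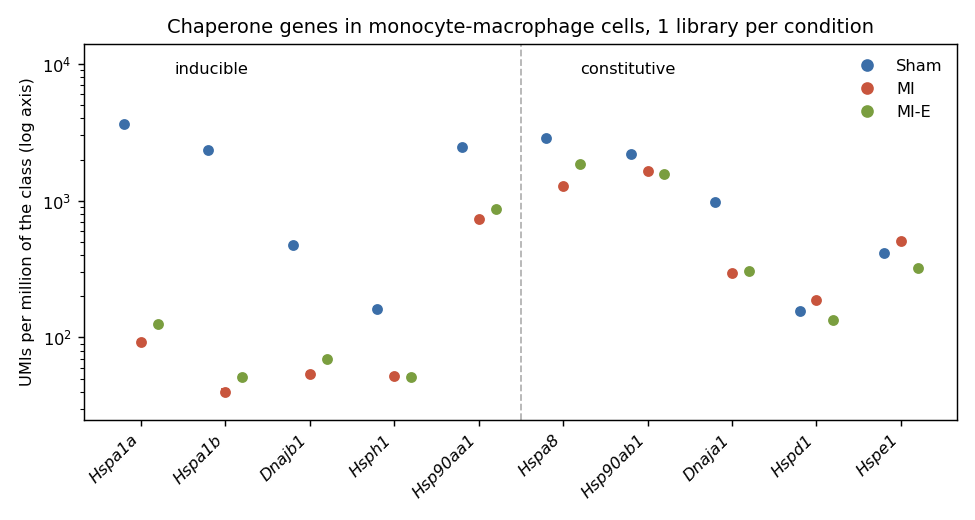
Levels of the 10 chaperone genes in monocyte-macrophage cells. Each dot is the level of 1 gene (x axis) in 1 library, in UMIs per 1000000 UMIs of the class on a log axis, with bars for the exact 95% Poisson interval, which is mostly smaller than the dot. The 5 inducible genes stand higher in Sham than in MI and MI-E, with Hspa1a at 3633 against 92.9 and 125 CPM. Hspd1 (157, 189 and 134 CPM in Sham, MI and MI-E) and Hspe1 (415, 508 and 324 CPM) differ less and are highest in MI.

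Hspa1a lies on chromosome 17 (GRCm38 chr17:34969190-34972156, minus strand) and Hspa1b next to it on the same strand (chr17:34956436-34959238), with 12918 bases between their starts. The 250 bases in front of each start, from RefSeq's promoter table on GRCm38.p6, are printed because the 2 genes were high and low in the same libraries and share this region almost letter for letter. The Hspa1a window is chr17:34972157-34972406 and the Hspa1b window chr17:34959239-34959488, both read 5′ to 3′ on the minus strand. Capitals mark the match to the short heat shock motif searched, 2 facing nGAAn units written GAANNTTC or TTCNNGAA on either strand.
Hspa1a: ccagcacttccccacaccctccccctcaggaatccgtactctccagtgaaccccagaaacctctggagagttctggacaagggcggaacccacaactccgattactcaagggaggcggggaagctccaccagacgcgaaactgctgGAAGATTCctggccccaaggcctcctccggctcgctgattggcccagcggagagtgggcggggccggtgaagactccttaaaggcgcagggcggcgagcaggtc
Hspa1b: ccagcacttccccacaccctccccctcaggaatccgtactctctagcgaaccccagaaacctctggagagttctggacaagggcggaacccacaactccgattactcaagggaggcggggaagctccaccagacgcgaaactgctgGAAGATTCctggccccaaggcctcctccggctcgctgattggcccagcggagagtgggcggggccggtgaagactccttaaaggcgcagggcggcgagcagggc
The windows were identical at 247 of 250 bases (98.8%), and each held 1 match, GAAGATTC, starting 104 bases before the gene. The transcripts also share sequence: 72.2% of the Hspa1a transcript and 76.5% of the Hspa1b transcript lay in words of 31 bases found in the other copy. The shared words ended 786 and 619 bases before the 3′ ends, and 0% of the last 300 bases was shared. Reads from the 3′ end can therefore tell the copies apart, while reads from further inside may not, and the sum of the pair does not depend on this split. Hspa1l, another HSP70 gene beside them, has 25.3% of its transcript in words shared with Hspa1a, again 0% in the last 300 bases. Gm20481, annotated on the plus strand, overlaps Hspa1a.

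A longer form of the motif with 3 units (GAANNTTC followed by NNGAA, or TTCNNGAA followed by NNTTC) was present in 0.466% of 32851 windows of the same length in the table, and the short form, which every long match contains, in 12.8%. Of the 10 genes 7 had a window: Hspa1a, Hspa1b, Dnajb1, Hsph1, Dnaja1, Hspd1 and Hspe1. Taking for each gene the window nearest its annotated start, the long form was found in 1 of the 7, Hspe1, as 2 overlapping matches, and the short form in 5 of the 7, counting Hspe1. Over all windows of these genes the counts were 2 and 6, since a second Hspd1 window (chr1:55087933-55088182, minus strand), which overlaps that of Hspe1, also held 2 long matches. With every window of a gene counted, 0.514% of 27025 genes in the table had the long form and 14.5% the short form. The stretches of 30 bases that hold the matches outside the HSP70 pair are printed to show how the same units recur, with the matched run in capitals. They lie at chr1:55088053-55088082 (plus strand, Hspe1), chr5:149636351-149636380 (minus strand, Hsph1) and chr4:40722333-40722362 (plus strand, Dnaja1).
Hspe1: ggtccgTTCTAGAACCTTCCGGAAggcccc
Hsph1: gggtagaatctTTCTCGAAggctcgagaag
Dnaja1: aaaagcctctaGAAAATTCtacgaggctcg
Hspd1 and Hspe1 stand head to head, and the Hspe1 stretch lies 95 to 66 bases before the RefSeq start of Hspe1. Hspd1 (chr1:55077835-55088243, minus strand) and Hspe1 (chr1:55088132-55091307, plus strand) overlap at their first bases, far from the 3′ ends that were read. The other members lie at chr8:83608193-83612653 (Dnajb1), chr5:149614287-149636376 (Hsph1), chr12:110690605-110702728 (Hsp90aa1), chr9:40800984-40810087 (Hspa8), chr17:45567775-45573271 (Hsp90ab1) and chr4:40722150-40737149 (Dnaja1, overlapped by Smu1 on the other strand). These matches describe letters in a window and were not linked to binding of any factor here.

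The other inducible genes were also lower in the infarct libraries, by smaller folds than the HSP70 pair. Dnajb1, the J-domain partner of HSP70 in the stress response, was at 474 CPM in Sham against 54.3 in MI and 69.9 in MI-E, which is 8.73-fold lower in MI (8.41 to 9.08) and 6.78-fold lower in MI-E (6.54 to 7.03). Hsp90aa1, the stress-inducible HSP90, was at 2461, 738 and 869 CPM, 3.34-fold lower in MI (3.29 to 3.38) and 2.83-fold lower in MI-E (2.80 to 2.87). Hsph1, the nucleotide release factor of HSP70, was at 161, 52.2 and 51.2 CPM, 3.08-fold lower in MI (2.93 to 3.23) and 3.14-fold lower in MI-E (2.99 to 3.30). All 5 inducible genes were thus at least 1.5-fold lower in both infarct libraries, beside 18.6% of the 8437 genes measured in MI and 19.2% of 8353 in MI-E. None of the 10 was 1.5-fold higher in either, beside 26.1% and 26.3% of the genes. These shares are printed for scale, since the genes were chosen on this contrast. Summed, the inducible genes were at 9086 CPM in Sham against 977 in MI and 1166 in MI-E.

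The constitutive genes differed less between libraries, apart from Dnaja1. Dnaja1, a J-domain protein that serves constitutive HSP70, was at 972 CPM in Sham against 294 in MI and 307 in MI-E, about as wide a gap as for Hsp90aa1 (3.31-fold lower in MI, 3.24 to 3.37). Hspa8, the constitutive HSP70 of the cytosol, was at 2874, 1271 and 1867 CPM, 2.26-fold lower in MI (2.24 to 2.29) and 1.54-fold lower in MI-E (1.52 to 1.56). Hsp90ab1, the constitutive HSP90, was at 2183, 1645 and 1569 CPM, 1.33-fold and 1.39-fold lower. The mitochondrial pair had its highest levels in MI. Hspd1 was at 157 CPM in Sham against 189 in MI and 134 in MI-E, and Hspe1 at 415, 508 and 324 CPM. The ratio of MI to Sham was 1.20 for Hspd1 (1.16 to 1.25) and 1.22 for Hspe1 (1.19 to 1.25), short of 1.5-fold. In MI and in MI-E 2 of the 5 constitutive genes, Hspa8 and Dnaja1, were at least 1.5-fold lower than in Sham, and 0 were higher. For MI-E the call on Hspa8 lies at the limit: its log2 ratio of -0.62 became -0.46 with TMM scaling and -0.05 within clusters held by both libraries, which ends the call. The constitutive sum was 6601, 3906 and 4201 CPM, 1.69-fold and 1.57-fold lower. Its levels were also averaged with equal weight over clusters held by both libraries. The log2 ratio of these averages was -0.53 in place of -0.76 for MI and -0.12 in place of -0.65 for MI-E. For MI-E, clusters 11 and 19 (3.68% and 3.99% of Sham monocyte-macrophage cells) thus weighed as much as clusters 4 and 6 (39.6% and 51.5%). Inside clusters 4 and 6 the MI-E sum was further below Sham than this ratio of averages, and in cluster 11 it was above Sham (ratios further on). Over all measured genes the median log2 ratio was 0.13 in both comparisons, against -1.66 and -1.57 over the 10 chaperones.

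In the monocyte-macrophage class as a whole, most members differed by less than 1.5-fold between the infarct libraries. Relative to MI, Hspe1 in MI-E was 1.57-fold lower (1.54 to 1.59) and was the 1 chaperone at least 1.5-fold lower, while 0 were at least 1.5-fold higher, beside 6.00% and 5.27% of 8121 genes. Hspa8 was 1.47-fold higher in MI-E (1.46 to 1.48). The difference in Hspa8 was of like size in every cluster that held 50 cells of both libraries, with ratios from 1.38 in cluster 4 to 1.5 in clusters 5 and 17. Hspe1 was lower in MI-E in the same 7 clusters, with ratios from 0.661 in cluster 17 to 0.882 in cluster 4. The HSP70 pair varied more, from 1.19 in cluster 9 to 5.32 in cluster 6. With the levels of the pair averaged with equal weight over the 7 clusters, the log2 ratio was 1.31 in place of 0.40.

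Within single clusters the HSP70 pair was lower in MI than in Sham in each of the 3 that allowed the comparison. In cluster 4, resident macrophage-like, the pair was at 7444 CPM in 1431 Sham cells, 1407 CPM in 168 MI cells and 2168 CPM in 81 MI-E cells, 5.29-fold lower in MI (5.07 to 5.53) and 3.43-fold lower in MI-E (3.29 to 3.59). In cluster 6 it was at 5518 CPM in 1859 Sham cells, 551 CPM in 67 MI cells and 2935 CPM in 53 MI-E cells, 10.0-fold lower in MI (8.93 to 11.2) but 1.88-fold lower in MI-E (1.77 to 2.00). In the classical monocyte-like cluster 11 it was at 397 CPM in 133 Sham cells, 37.5 in MI and 59.4 in MI-E, 10.6-fold lower in MI (8.84 to 12.7). The monocyte-like cells were thus low in every library, and clusters 4 and 6 held the highest levels in each. In cluster 19, nonclassical monocyte-like, the pair was at 455 CPM in Sham against 274 in MI-E.

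Other members followed less closely inside clusters. Hsp90aa1 in MI was 0.324 times its Sham level in cluster 4 and 0.297 times in cluster 6, but 1.09 times in cluster 11, where Sham cells had 512 CPM against 2577 and 2660 CPM in clusters 4 and 6. Dnajb1 was at 513 CPM in Sham cluster 4, 506 CPM in cluster 6 and 81.5 CPM in cluster 11. Its MI level was 0.313, 0.292 and 0.573 times as high. The constitutive sum in MI was 0.656, 0.626 and 0.891 times the Sham level in clusters 4, 6 and 11, and in MI-E 0.766, 0.762 and 1.09 times. In cluster 11 the MI-E level was 0.15 times the Sham level for the HSP70 pair, 0.754 times for Dnajb1 and 0.688 times for the constitutive Dnaja1. Hsph1 was at 0.951 times and Hsp90aa1 at 1.34 times, so in these monocyte-like cells not every inducible gene was lower and not every constitutive gene was level.

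**Figure D2:**
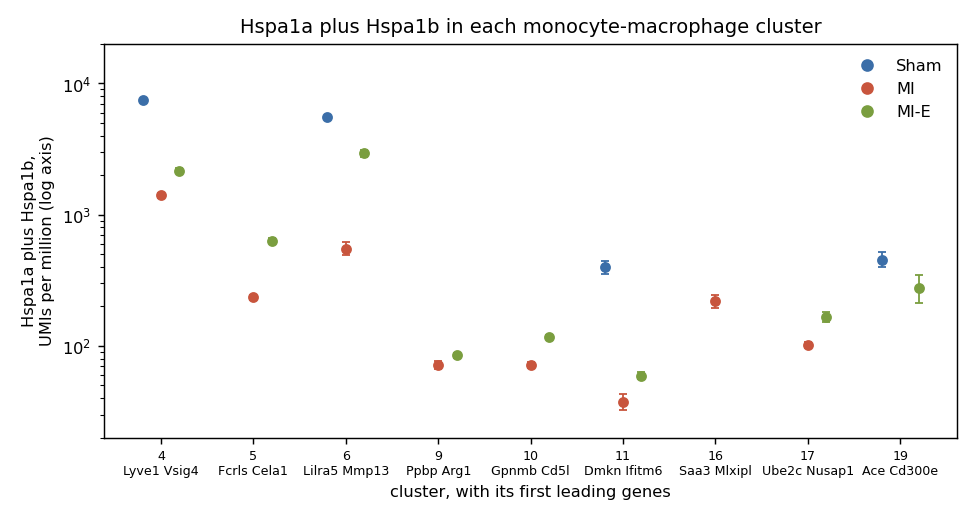
Hspa1a plus Hspa1b in each monocyte-macrophage cluster. The x axis gives the cluster and its first leading genes, the y axis UMIs per 1000000 on a log axis, and each dot is 1 library with at least 50 cells in the cluster, with its 95% Poisson interval. Clusters 4 and 6 are the highest of these clusters in each library, from 7444 CPM in Sham cluster 4 down to 551 CPM in MI cluster 6, and in both of them Sham stands above MI-E and MI-E above MI.

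Most Sham macrophages had RNA of the pair, and most infarct macrophages had no UMI of it after thinning. To compare cells of different depth, each was thinned to 1500 UMIs, which left out 69, 93 and 66 monocyte-macrophage cells of Sham, MI and MI-E. In Sham 78.3% of the cells then had at least 1 UMI of the pair (exact binomial interval 76.9 to 79.6), in MI 12.3% (11.4 to 13.2) and in MI-E 11.1% (10.3 to 12.0). Unthinned, the shares were 86.8%, 33.8% and 32.3%. The middle Sham cell had 5 UMIs of the pair, the upper quartile was 14 and the highest had 94, whereas the median was 0 in MI and in MI-E. Hspa8 was seen in 94.0% of thinned Sham cells, 80.4% of MI and 88.1% of MI-E cells.

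Cells with many UMIs of the pair were few in the infarct libraries. Of the thinned cells 51.5% in Sham had 5 UMIs or more, against 0.95% in MI and 1.69% in MI-E. In cluster 4 these shares were 68.8% in Sham against 15% in MI and 32.1% in MI-E, and in cluster 6 they were 45.7%, 3.03% and 37.7%. Cells without a UMI made up 7.70% of Sham cells in cluster 4 and 24.3% in cluster 6, so the 2 clusters that carried the Sham level differed in how many cells took part.

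Across thinned Sham monocyte-macrophage cells (3541 cells of 1 library, so a description with no test) the rank correlation of Hspa1a with Hspa1b was 0.79. The pair correlated with Hsp90aa1 at 0.55, with Dnajb1 at 0.40, with Hsp90ab1 at 0.38, with Hspa8 at 0.37, with Hsph1 at 0.32 and with Dnaja1 at 0.30. Hspe1 and Hspd1 followed at 0.27 and 0.17. Genes with few UMIs per cell are held to low values by sampling, so the order is not one of coupling. With immediate early genes, which are switched on within minutes of many stimuli, the correlation was 0.56 for Jun, 0.49 for Egr1 and 0.48 for Fos and for Atf3. In MI and MI-E, where the pair was absent from most thinned cells, all these values were at or below 0.26, other than 0.37 for Hspa1a with Hspa1b in MI-E.

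**Figure D3:**
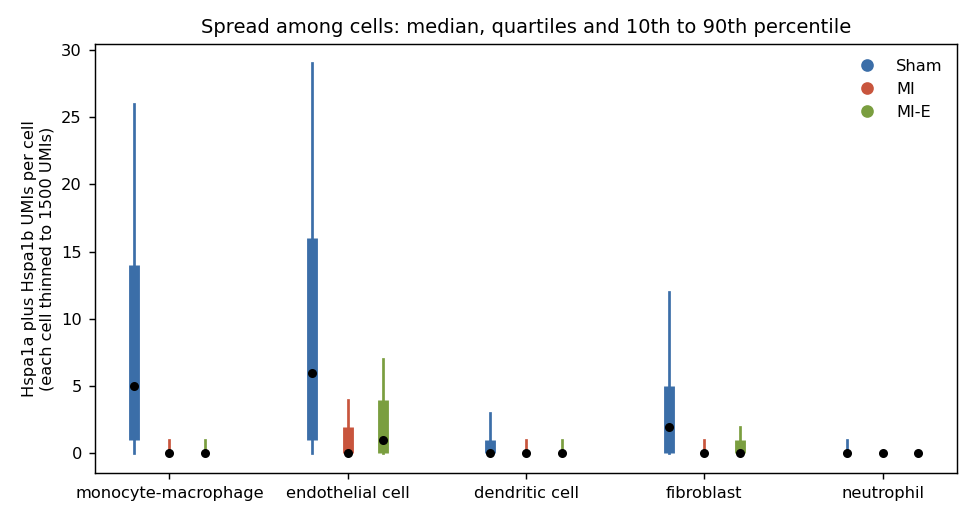
Hspa1a plus Hspa1b UMIs per cell in 5 cell classes, each cell thinned to 1500 UMIs. Black dots are medians, thick bars the quartiles and thin lines the 10th to 90th percentile over cells of 1 library. Sham monocyte-macrophage cells have a median of 5 and Sham endothelial cells a median of 6, while MI and MI-E monocyte-macrophage cells have a median of 0. Thinning kept 193 of 366 Sham endothelial cells (median 1776 UMIs before thinning), against 79 of 87 in MI and 254 of 283 in MI-E.

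Endothelial cells had the highest level of the pair in all 3 libraries, and the order of the other classes differed between them. In Sham it was endothelial cells at 7044 CPM (6892 to 7199), monocyte-macrophage cells at 5990 CPM, a small erythroid class of 98 low-UMI cells at 3238 CPM, fibroblasts at 3071 CPM (2914 to 3233), dendritic cells at 588 CPM (540 to 639), NK cells at 432 CPM (389 to 478), T cells at 200 CPM (183 to 218), B cells at 183 CPM (173 to 193) and neutrophils at 76.3 CPM (58.3 to 98.0). The counting intervals of T and B cells overlapped, as did those of erythroid cells and fibroblasts. The erythroid class also had 48.3% of the macrophage level of C1q, complement genes of macrophages, and 54.0% of that of the pair. In MI endothelial cells at 628 CPM were followed by dendritic cells at 153 CPM, fibroblasts at 148 CPM and monocyte-macrophage cells at 133 CPM, and T cells (27.0 CPM) and neutrophils (22.7 CPM) were lowest. In MI-E endothelial cells at 1300 CPM were followed by fibroblasts at 372 CPM, and NK cells at 183 CPM (147 to 225) and monocyte-macrophage cells at 176 CPM overlapped. The NK level of MI-E rested on very few cells, which the counting interval does not show. Of 85 thinned cells 90.6% had no UMI of the pair, the mean was 0.353 UMIs and the highest cell had 20. NK cells of MI-E also had 31.5% of the macrophage level of C1q, against 0.93% for those of Sham. Below NK and monocyte-macrophage cells in MI-E came dendritic cells at 144 CPM, T cells at 131 CPM, neutrophils at 43.9 CPM and B cells at 29.4 CPM.

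In every class with at least 50 cells of both libraries the pair was lower than in Sham. For MI these were 6 classes, from 3.36-fold in neutrophils (1.98 to 5.96) and 3.85-fold in dendritic cells (3.41 to 4.35) through 7.39-fold in T cells (4.20 to 14.4) and 11.2-fold in endothelial cells (10.4 to 12.1) to 20.7-fold in fibroblasts (17.7 to 24.4) and the 45.1-fold of monocyte-macrophage cells. For MI-E there were 8 classes, from 1.52-fold in T cells (1.27 to 1.83) to 34.1-fold. The Sham level of neutrophils cannot be told from free macrophage RNA, by its ratio to C1q RNA given further on, so their fold is no measure of neutrophil RNA. Some of these levels rested on few UMIs of the pair, among them 12 UMIs in 73 T cells of MI, 19 UMIs in 361 neutrophils of MI and 23 UMIs in 318 B cells of MI-E. B cells and NK cells of MI numbered 47 and 36 and were left out. Some Sham levels rested largely on few cells, which the counting intervals do not show. In 54 thinned Sham fibroblasts the mean was 5.07 UMIs of the pair, the median 2 and the highest cell 94. No UMI was seen in 89.4% of thinned Sham B cells, 87.8% of T cells and 80.6% of NK cells. Their highest cells had 57, 21 and 48 UMIs. In thinned Sham endothelial cells 17.1% had none and the median was 6.

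The endothelial and fibroblast cells passed a CD45 sort, and their identity was read from markers. Ptprc, the gene of CD45, was at 85.6 CPM in Sham endothelial cells and 78.6 CPM in Sham fibroblasts against 286 CPM in Sham monocyte-macrophage cells. Endothelial markers summed to 5384 CPM in the endothelial class of Sham, 2239 in MI and 3773 in MI-E. The class also held macrophage complement RNA: C1qa, C1qb and C1qc summed to 1636, 4023 and 2523 CPM, against 13873, 6257 and 4847 CPM in monocyte-macrophage cells. Sham endothelial cells had 17059 CPM of erythroid markers against 7.22 and 2110 CPM in MI and MI-E, and the cardiomyocyte markers were at 1005, 250 and 451 CPM in the 3 libraries. The part of these other cells' RNA in the chaperone levels was not tested.

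**Figure D4:**
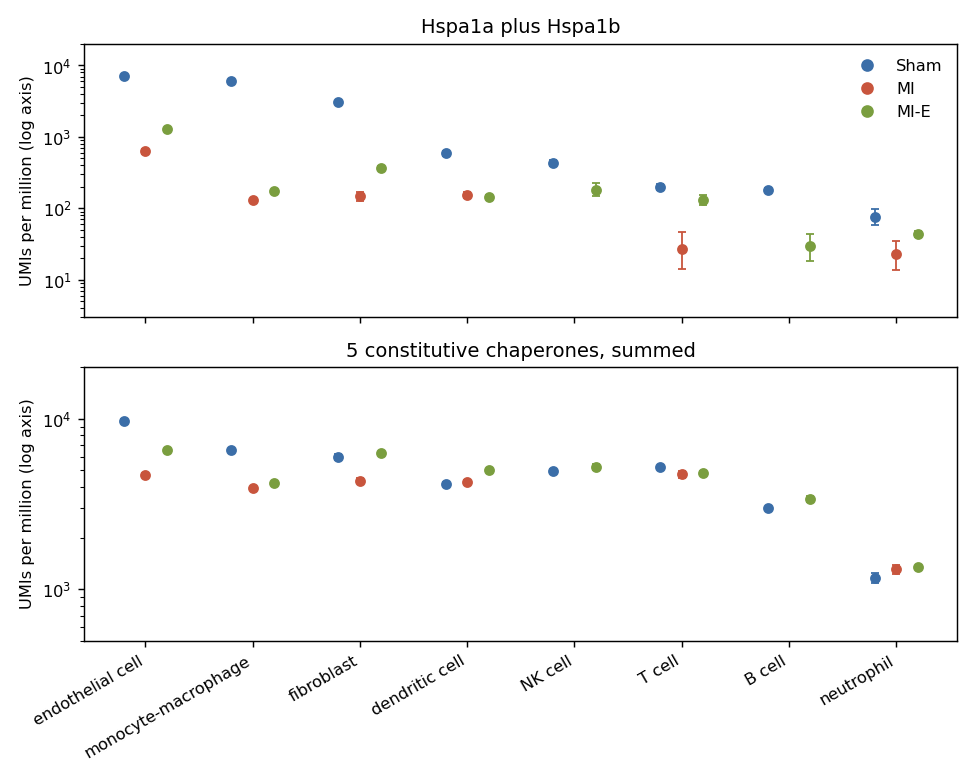
Hspa1a plus Hspa1b (upper panel) and the sum of 5 constitutive chaperones (lower panel) by cell class. Each dot is 1 library, in UMIs per 1000000 on a log axis, with its 95% Poisson interval, and classes under 50 cells have no dot. The pair spans 7044 to 76.3 CPM over the Sham classes and is lower in MI and MI-E in each class with a dot for them, while the constitutive sum differs far less between libraries.

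Against Sham, endothelial cells and fibroblasts had mostly the same members lower as macrophages, whereas MI-E stood above MI for more members than in macrophages. In endothelial cells 7 of the 10 genes were at least 1.5-fold lower in MI than in Sham (26.9% of 9356 genes) and the same 7 in MI-E (17.8% of 9460), with 0 higher in either (26.0% and 24.7%). Dnajb1 was at 708, 92.1 and 230 CPM, Hsp90aa1 at 2933, 849 and 1337 CPM and Dnaja1 at 1728, 445 and 728 CPM in Sham, MI and MI-E. All 5 inducible genes, Hspa8 and Dnaja1 stood at least 1.5-fold above MI in MI-E, beside 19.0% of 9291 genes, and 0 stood below, beside 10.2%. In fibroblasts, 61 cells in Sham and 69 in MI, 7 genes were lower in MI (27.1% of 9845) and 6 in MI-E (25.1% of 10000), with 0 higher in MI (23.3%). Between the infarct libraries 6 were at least 1.5-fold higher in MI-E (15.1% of 9726) and 0 lower (9.22%). After thinning cells to equal UMIs the log2 ratios of 3 of these 6 fell short of the limit, Hsph1 from 0.61 to -0.01, Hspd1 from 0.61 to -0.15 and Hsp90aa1 from 0.63 to 0.34, while that of Dnajb1 passed it (0.28 to 0.88). Dnajb1 reached its highest level of any class there, 929 CPM in Sham against 180 in MI and 219 in MI-E. Hspd1 in fibroblasts was at 193 CPM in Sham against 270 in MI and 412 in MI-E, the 1 member at least 1.5-fold above Sham in MI-E (26.0% of genes).

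Dendritic cells and lymphocytes showed the gap on the inducible side. In dendritic cells Hspa1a, Hspa1b, Dnajb1 and Hsph1 were at least 1.5-fold lower in MI and in MI-E than in Sham (13.1% of 7462 genes and 11.4% of 7534), and 0 of the 5 constitutive genes were. T cells had the same 4 lower in MI (16.0% of 8022) and 3 in MI-E (9.06% of 8088), NK cells 4 in MI-E (23.5% of 8318) and B cells 3 in MI-E (14.6% of 7800), all of them inducible. No member was at least 1.5-fold above Sham in these comparisons, beside 28.2% and 32.2% of genes in dendritic cells of MI and MI-E, 36.9% and 34.4% in T cells, 22.1% in NK cells and 14.9% in B cells. Set against MI, MI-E had Hspa1a, Hspa1b and Dnajb1 higher in T cells (22.3% of 8323 genes) and Dnajb1 in dendritic cells (9.27% of 7576), with 0 members lower (20.2% and 4.86%). Their constitutive sums were close together: 4147, 4287 and 4984 CPM in dendritic cells of Sham, MI and MI-E, 5206, 4717 and 4829 CPM in T cells, and 3002 and 3402 CPM in B cells of Sham and MI-E.

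Neutrophils had the lowest chaperone levels of all classes, 1643 CPM for the 10 genes together in Sham against 15687 CPM in monocyte-macrophage cells. Their HSP90 genes were higher in the infarct libraries. Hsp90aa1 was at 331 CPM in Sham, 598 CPM in MI (ratio 1.80, 1.55 to 2.10) and 582 CPM in MI-E (1.76, 1.55 to 2.00), and Hsp90ab1 at 206, 384 and 333 CPM (1.86, 1.54 to 2.26, and 1.62, 1.38 to 1.90). Hspa8 was at 296, 346 and 506 CPM and Hspe1 at 31.3, 77.5 and 42.8 CPM. Of 9 members measured, 3 were at least 1.5-fold higher in MI than in Sham, beside 42.2% of 6629 genes, and 3 in MI-E, beside 37.9% of 6612, so these counts do not stand above the background. Hspa1a and Hspa1b were the 2 lower ones in each comparison, beside 17.3% and 17.4%. Set against MI, Hspa1a was higher in MI-E (9.36% of 6912 genes) and Hspe1 lower (15.2%). The neutrophils of the libraries lay in different clusters: 391 of 419 Sham cells in cluster 7, and nearly all MI and MI-E cells in clusters 20 and 21. The 22.7 CPM of the HSP70 pair in MI neutrophils rests on 19 UMIs.

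Free RNA in the suspension gives UMIs of abundant macrophage genes in cells of other kinds. A single such source keeps 2 genes in 1 ratio in every class of a library. In Sham the ratio of pair UMIs to C1q UMIs was 0.432 in monocyte-macrophage cells and 0.367 in neutrophils, so the Sham neutrophil level cannot be told from background. It was 0.484 in erythroid cells, near the macrophage value, and well above it in the other classes: 1.02 in fibroblasts, 1.30 in B cells, 2.09 in T cells, 2.60 in dendritic cells, 3.35 in NK cells and 4.31 in endothelial cells. In MI it was 0.0212 in monocyte-macrophage cells and 0.0611 in neutrophils, and in MI-E 0.0363 and 0.156. Relative to macrophages, Sham B cells had 3.06% of the pair's level and 1.02% of the C1q level. After thinning, which left out 95 of 419 Sham neutrophils, 11.1% of them (median 1742 UMIs before thinning) and 12.2% of T cells had a UMI of the pair, against 78.3% of monocyte-macrophage cells (median 5170.5 UMIs). The MI and MI-E macrophage shares of 12.3% and 11.1% stand beside 3.21% and 5.46% of the neutrophils of those libraries.

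Low-quality barcodes carried the pair as well. Cluster 3, 1370 Sham cells with a median of 911 UMIs that scored highest for monocyte-macrophage markers but stayed unnamed, had 6672 CPM (6564 to 6781). Cluster 18, with medians of 966 and 959 UMIs, had 1467 CPM in MI against 850 in MI-E, both above the 110 and 152 CPM of the unnamed cluster 8 (led by Cmpk2, Rsad2 and Usp18) in the same libraries. Mitochondrial UMIs made up a median of 2.62% in kept Sham cells, 1.19% in MI and 1.62% in MI-E. The part of cell quality in the levels was not tested.

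The wider chaperone network in monocyte-macrophage cells did not differ between libraries as 1 block. Of 21 measured genes in a list of other HSF1-inducible chaperones and co-chaperones, 7 were at least 1.5-fold lower and 5 higher in MI than in Sham, with a median log2 ratio of 0.01. In MI-E 5 were lower and 2 higher. For all genes of the class the shares were 18.6% lower and 26.1% higher in MI, and 19.2% and 26.3% in MI-E, and the counts of the lists that follow are to be read beside these. Hspb1, a small heat shock protein that keeps unfolded clients soluble, had the widest gap of the list, at 309 CPM in Sham against 21.6 in MI and 9.66 in MI-E. Bag3, which links HSP70 to autophagy, was at 82.3, 28.1 and 38.0 CPM, and the polyubiquitin gene Ubb at 7072, 2213 and 2683 CPM. Cacybp, a co-chaperone bound to ubiquitin ligases, had the highest ratio of MI to Sham, at 72.5, 143 and 108 CPM. Hspa4, a relative of Hsph1 with the same role, was at 71.7, 135 and 132 CPM. The list's name thus covers genes on both sides.

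Constitutive co-chaperones, chaperonin subunits and mitochondrial chaperones had 0 genes at least 1.5-fold lower in either infarct library. Among 16 constitutive co-chaperones 5 were at least 1.5-fold higher in MI and 6 in MI-E, with median log2 ratios of 0.23 and 0.39 against 0.13 over all genes. Fkbp5, an HSP90 co-chaperone that glucocorticoids induce, was at 6.74 CPM in Sham against 59.6 in MI and 12.0 in MI-E, a log2 ratio of 2.97 between MI and Sham and of -2.22 between MI-E and MI. Dnajc7 had the lowest ratio of that list, at 57.7, 49.3 and 51.8 CPM. Of the 8 subunits of the TRiC/CCT chaperonin, which folds actin and tubulin, 4 were higher in MI and 7 in MI-E, with Cct6a at 61.2, 144 and 128 CPM and Cct4 at 120, 107 and 119 CPM. Mitochondrial chaperones and proteases had 3 of 8 higher in MI and 1 of 8 in MI-E, from Grpel1, the nucleotide exchange factor of mitochondrial HSP70, at 62.7, 120 and 111 CPM to Clpb at 8.15, 7.98 and 10.2 CPM.

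Chaperones of the endoplasmic reticulum were higher in the infarct libraries in 11 of 16 measured cases for MI and 7 of 16 for MI-E, beside 26.1% and 26.3% of all genes, with median log2 ratios of 0.86 and 0.56 against Sham. In each comparison 2 were lower. Creld2, a protein of that compartment, had the highest ratio at 11.9, 54.7 and 45.8 CPM, and Calr, the lectin chaperone calreticulin, was at 331, 655 and 760 CPM. Hspa5, the HSP70 of the compartment, was at 1314, 996 and 959 CPM, so it did not follow the others. Dnajb9 and Herpud1, targets of the unfolded protein response, were lower, Dnajb9 at 201, 44.4 and 56.6 CPM and Herpud1 at 103, 25.5 and 30.2 CPM. Of the regulators, Hsf1 was at 11.9, 9.13 and 11.8 CPM and Hsf2 at 8.79, 11.3 and 13.5 CPM, while Hsbp1, which binds the active factor, was at 168, 217 and 183 CPM.

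**Figure D5:**
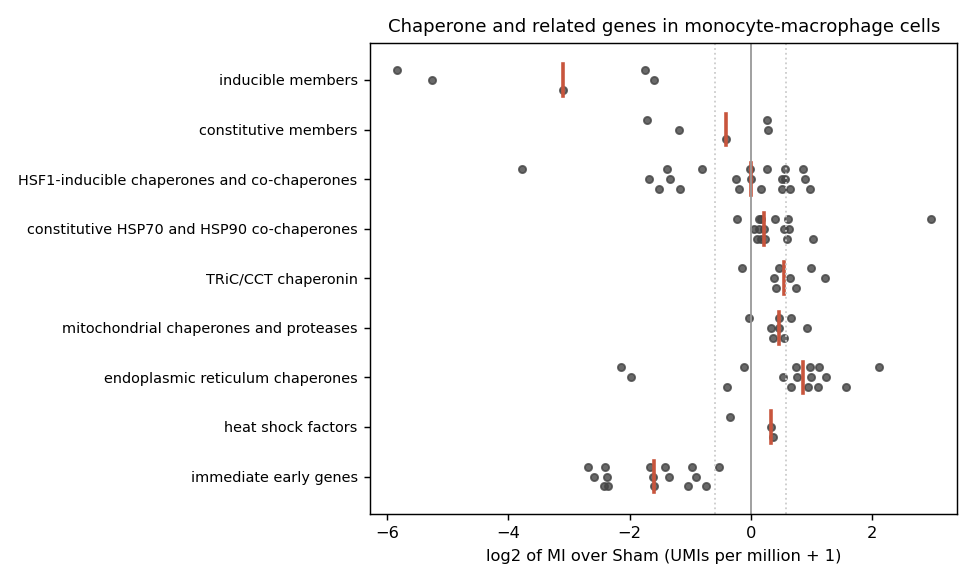
Log2 ratio of MI to Sham in monocyte-macrophage cells for the members and 7 lists of related genes. Each dot is 1 gene with a mean of at least 5 CPM, red lines are list medians and dotted lines mark 1.5-fold in either direction. The inducible members (median -3.10) and the immediate early genes (median -1.60) lie to the left, and endoplasmic reticulum chaperones (median 0.86) mostly to the right.

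Immediate early genes, whose RNA also appears when tissue is cut and digested, were lower in the same libraries as the inducible chaperones. In monocyte-macrophage cells 15 of 16 were at least 1.5-fold lower in MI than in Sham and 15 of 16 in MI-E, with medians of -1.60 and -1.54 on the log2 scale. Atf3 was at 2349 CPM in Sham against 362 in MI and 316 in MI-E, Jun at 1249, 234 and 211 CPM, Egr1 at 787, 146 and 94.9 CPM and Fos at 1328, 440 and 347 CPM. Nr4a1, at 106, 73.7 and 72.4 CPM, differed least. Within clusters the summed immediate early genes in MI were 0.538 times the Sham level in cluster 4 and 0.580 times in cluster 6, but 1.15 times in cluster 11, where the HSP70 pair was at 0.0945 times. These counts stand beside 18.6% and 19.2% of all genes. In fibroblasts 15 of 16 were lower in MI, beside 27.1% of genes, and in endothelial cells 13, beside 26.9%. In neutrophils 0 were lower and 7 higher in MI, the latter near the 42.2% of all genes. In the other classes inducible chaperones were lower, and immediate early genes lay on both sides. Of 16, 4 were lower and 1 higher in dendritic cells of MI, beside 13.1% and 28.2% of all genes. In T cells of MI 5 were lower and 2 higher, beside 16.0% and 36.9%. These 2 classes of MI thus had more of them lower than higher, unlike their genes at large. For MI-E 5 were lower and 5 higher in NK cells, beside 23.5% and 22.1%. B cells of MI-E had 4 lower and 4 higher, beside 14.6% and 14.9%. Library and condition cannot be told apart here, and the part of cell handling in the chaperone levels was not tested.

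Over 23 profiles of class and library with at least 50 cells, the genes most like Hspa1a plus Hspa1b in log2 level were sought among 5589 genes. The highest correlations (Pearson, a description over profiles that share libraries) were Sult1a1 at 0.87, Tmcc3 and Cdkn1c at 0.86, Ripk1, Slco2b1, Lilra5 and Selenop at 0.83, Glul at 0.82, Fxyd2 at 0.81 and Hspb1 at 0.80. Sult1a1 was at 57.4 CPM in Sham monocyte-macrophage cells, 2.86 in MI and 1.20 in MI-E, and Selenop, a secreted selenium carrier, at 2410, 518 and 451 CPM. Among the members, Dnajb1 and Hsp90aa1 reached 0.84, Hsph1 0.77, Hspa8 0.71, Dnaja1 0.67, Hsp90ab1 0.47, Hspd1 0.42 and Hspe1 0.40.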

How the data were processed

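Droplet 3′ single-cell RNA libraries (10x, version 3.1 chemistry) were made from sorted heart immune cells, 1 library per condition. The authors deposited raw UMI counts per gene and barcode, made with Cell Ranger 5.0.1 on mm10, per the submitters' processing notes. The gene annotation behind the counts was not given in the sources used here, and coordinates printed are from GENCODE on GRCm38, the same assembly as mm10.

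Barcodes under 200 genes or above 10% mitochondrial UMIs were dropped, and doublets scored by Scrublet were removed: 1013 in Sham and 647 in MI at the expected rate (0.8% per 1000 barcodes), and 291 in MI-E at the automatic threshold. Clustering used scanpy 1.11.5 (2000 variable genes without the chaperones and related lists, 30 components, 15 neighbours, Leiden resolution 1) and gave 24 clusters, of which 4 stayed unnamed. The naming thresholds were set after clusters had been seen. Counts were summed per class and library and scaled to 1000000 UMIs (CPM), log2 ratios use a pseudocount of 1 CPM, and genes needed a mean of 5 CPM and classes 50 cells in both libraries. Calls are differences of at least 1.5-fold without a test. Genes named are all 10 members, in each list the genes with the highest and lowest ratio of MI to Sham, with Hspb1, Bag3, Hspa5, Hsf1, Fos, Jun, Egr1 and Atf3, and the 10 genes most like Hspa1a plus Hspa1b. Ubb, Hspa4, Calr, Herpud1 and Hsf2 were named after their values were seen. edgeR 4.0.16 gave TMM scaling factors only. Scripts were tested on simulated data. The members and lists were chosen with earlier results of these data known. Alternatives covered thinning, scaling, pseudocount, filters, naming and weighting.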

Additional observations from a re-analysis of the deposited data

Results flagged for a closer look

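Hsp90aa1 and Hspa8 pointed in opposite directions in 2 classes under the same contrast, and the differences between classes were not tested. For MI over Sham the log2 ratio of Hsp90aa1 was 0.85 in neutrophils and -1.79 in endothelial cells. For MI-E over Sham it was 0.81 in neutrophils and -1.50 in monocyte-macrophage cells. Hspa8 was at 0.77 in neutrophils and -0.69 in endothelial cells for MI-E over Sham. Of all neutrophil genes, 42.2% were at least 1.5-fold above Sham in MI and 37.9% in MI-E. Most Sham neutrophils also lay in a different cluster from those of MI and MI-E.

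Barcodes left out for more than 10% mitochondrial UMIs also carried Hspa1a and Hspa1b, at 3971 CPM in Sham (192 cells), 634 CPM in MI (216 cells) and 656 CPM in MI-E (397 cells).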

How the results depend on the processing

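With 1 library per condition the spread between mice is unknown, and depth limits lymphocyte and neutrophil values of the HSP70 pair, some of which rest on fewer than 50 UMIs. No paired analysis was possible because each condition has 1 library. Of 1157 alternative values for 117 ratios past 1.5-fold, 1154 kept their sign. The 3 that turned, all for MI-E over MI, were Hsph1 in neutrophils with cells gated one by one on markers (-0.03), and Hsph1 (-0.01) and Hspd1 (-0.15) in fibroblasts after thinning. The count of 7 members lower in MI than in Sham was 7 in all 12 alternatives. Among these, the larger pseudocount and the dropped filter on low genes could not change it. The count uses no pseudocount, and all 10 members passed the filter. The values below are log2 ratios in monocyte-macrophage cells, and the cause of each change was not tested.

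For MI over Sham the HSP70 pair (-5.48) was at -5.29 after thinning, -5.33 with TMM scaling, -5.39 with a pseudocount of 10, -5.55 without doublet removal, -5.53 with the members kept among the variable genes, -5.25 with cells weighted equally, -2.74 within shared clusters and -5.77 with gated cells. The constitutive sum (-0.76) was at -0.86, -0.60, -0.73, -0.74, -0.84, -0.53 and -0.78 under thinning, TMM, no doublet removal, members kept, equal weights, shared clusters and gating, and at -0.73 both with mitochondrial UMIs limited to 5% and with unnamed clusters added. For MI-E over Sham the pair (-5.08) was at -4.92 with TMM, -5.01 with a pseudocount of 10, -5.14 without doublet removal, -5.24 at the 5% limit, -5.15 with members kept, -5.13 with unnamed clusters, -1.34 within shared clusters and -5.47 with gated cells. The constitutive sum (-0.65) was at -0.73 after thinning, -0.49 with TMM, -0.62 with members kept, -0.71 with equal weights, -0.12 within shared clusters and -0.61 without doublet removal, at the 5% limit and with unnamed clusters. The count of 7 members lower in MI-E was 6 with TMM, without doublet removal, at the 5% limit, with members kept, with unnamed clusters, with gated cells and at a 2-fold limit, and 4 within shared clusters.

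For MI-E over MI the pair (0.40) was at 0.19 after thinning, 0.26 at the 5% limit, 0.18 with equal weights, 1.31 within shared clusters and 0.30 with gated cells. The constitutive sum (0.11) was at 0.12 after thinning, without doublet removal, at the 5% limit, with members kept and with equal weights, 0.13 with unnamed clusters, 0.20 within shared clusters and 0.14 with gated cells. The 1 member lower in MI-E became 0 within shared clusters, with gated cells and at a 2-fold limit, and 2 members were higher within shared clusters in place of 0. Gating kept 1428 Sham monocyte-macrophage cells against 3610 from clustering, with 1240 in both.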
